A study of Mus musculus with 10 samples.

Results

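The 26S proteasome is the protease complex that degrades ubiquitin-tagged proteins, and 43 of the 41813 genes in the deposited mouse gene tables encode its named subunits, assembly chaperones or activators. They were picked by symbol alone, as every gene whose name is Psma, Psmb, Psmc, Psmd or Psme followed by a number. That rule used no measured value, although the family was chosen with earlier results of these data known. Of these, 42 had enough counts for testing among 13946 genes tested, and the thymus form Psmb11 did not. RNA was sequenced from 6 libraries of bone marrow-derived dendritic cells, which present antigen to T cells and were labelled CD11c+ MHCIIhigh. Per the design text of the series, all dendritic cells received lipopolysaccharide (LPS), were pulsed or not with the ovalbumin peptide OVA323-339, and were cocultured for 24 h with CD4+ OT-II T cells, whose transgenic receptor recognises that peptide. The 3 libraries titled activated carry the sample label stimulated with LPS and the 3 titled non-activated carry the label not stimulated, so the labels and the design text differ on whether the non-activated cells received LPS. "Activated" and "non-activated" below are the titles, and no title or label states which libraries were pulsed. Strain and age of the mice were not given in the labels used here. Replicates are not described as separate mice or cultures, so the spread behind each p-value is that between these libraries and may be technical.

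The proteasome core is a barrel of 4 stacked rings, an outer pair of alpha subunits and an inner pair of beta subunits, in which the beta-1, beta-2 and beta-5 positions carry the proteolytic sites. In immune cells, and in other cells exposed to interferon, the standard subunits Psmb6, Psmb7 and Psmb5 at these positions can be replaced in newly built particles by Psmb9, Psmb10 and Psmb8. The resulting immunoproteasome changes which peptides are cut for MHC class I. A 19S cap of ATPases and ubiquitin receptors feeds substrates into the core, and PA28, built from Psme1 and Psme2, is an alternative cap that is also induced by interferon.

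Summed expected counts ran from 21338012 to 27404937 per library, and the mitochondrial share of counts was 1.80% to 2.12% in the activated and 2.20% to 2.56% in the non-activated group. All 12 dendritic cell markers were measured, and 6 were higher and 0 lower in activated libraries. Of all tested genes, 15.9% were higher and 11.7% lower. The 6 were Zbtb46, Ccr7, Cd86, Irf4, Irf8 and Ciita. Itgax, H2-Aa, H2-Ab1, H2-Eb1, Cd74 and Flt3 did not pass, with folds of 0.771 (H2-Aa) to 0.994 (Flt3). H2-Aa, H2-Eb1 and Cd74 were lower on TPM in every same-numbered pair. Both replicate 1 libraries stood apart: the T cell receptor gene Trac was at 41160 and 41069 TPM (a length-corrected share of the library's transcripts) in activated and non-activated replicate 1, and at 14.4 to 160 TPM in the other 4. The T cell receptor signalling gene Cd3e was at 0.17 to 2.98 TPM over all 6. The receptor constant gene Trbc2 was at 297 and 292 TPM in activated and non-activated replicate 1, and at 1.51 to 5.57 TPM in the other 4. The 14 T cell markers without the receptor constant genes, Cd3e among them, summed to 38.1 to 57.5 TPM in the activated and 27.6 to 44.7 TPM in the non-activated group. Of these, 3 of the 7 tested (Cd247, Lck and Zap70) were higher and 0 lower. Markers of B cells summed to 3.04 to 4.10 against 0.34 to 0.70 TPM, of NK cells to 5.63 to 15.9 against 13.7 to 26.1 TPM with Klrb1c listed at 0 in all libraries, and of neutrophils to 0.88 to 1.94 against 1.26 to 2.13 TPM. Cd79b, the only B cell marker tested, was higher (mean 2.61 against 0.20 TPM, edgeR adjusted p = 0.00304). Klrk1 made up most of the NK cell sum (mean 10.9 against 21.6 TPM) and did not pass. Near the floor, Ncr1 (0.38 against 0 TPM), Nkg7 (0.42 against 0) and Eomes (0.04 against 0) went the other way. Prf1 was at 0.03 against 0.04 TPM. Macrophage or monocyte markers summed to 1436 to 2741 against 2179 to 2850 TPM, with 1 of 8 higher and 1 lower. The part of these cells in the results below was not tested, and in bulk RNA a change in the share of a cell type and a change in RNA per cell cannot be told apart.

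Proteasome genes were abundant in both groups, and more of them rose than fell in activated libraries. Of 42 tested members, 13 rose and 0 fell in activated libraries by edgeR's quasi-likelihood test with Benjamini-Hochberg adjustment at 0.05, against a background of 15.9% of all tested genes higher and 11.7% lower (27.6% either way). The 13 were 31.0% of the members. The median log2 fold change was 0.14 over the members and 0.01 over all genes tested, and 35 of the 42 members, or 83.3%, had a positive value against 50.7% of all genes. On TPM, 21 members had all 3 activated libraries above all 3 non-activated ones and 2 had them all below, where 20.2% and 18.4% of all tested genes did. The median member stood at 121 TPM, above 91.3% of the tested genes, whose median was 14.0 TPM. The 43 genes together took 0.885% ± 0.0556 of TPM in activated and 0.659% ± 0.0226 in non-activated libraries (SD, n = 3 each). Without Psme2, whose level is discussed with PA28, their TPM summed to 6233 ± 154 and 5412 ± 73.4 (SD, n = 3 each). The count of risen members was 9 without non-activated replicate 2 or without non-activated replicate 3, and 12 without both replicate 1 libraries, of which 11 were among the 13. In these fits, in that order, 11.26%, 11.04% and 12.90% of all tested genes were higher. Calls of higher genes thus fell over all genes too, from 15.9%. With the replicate number as a block, 18 rose and 2 (Psmb1 and Psmc1) fell, where 20.0% of all tested genes were higher and 17.2% lower. With library size as the only scaling, 12 rose and the same 2 fell, where 12.8% of all were higher and 16.3% lower.

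**Figure D1:**
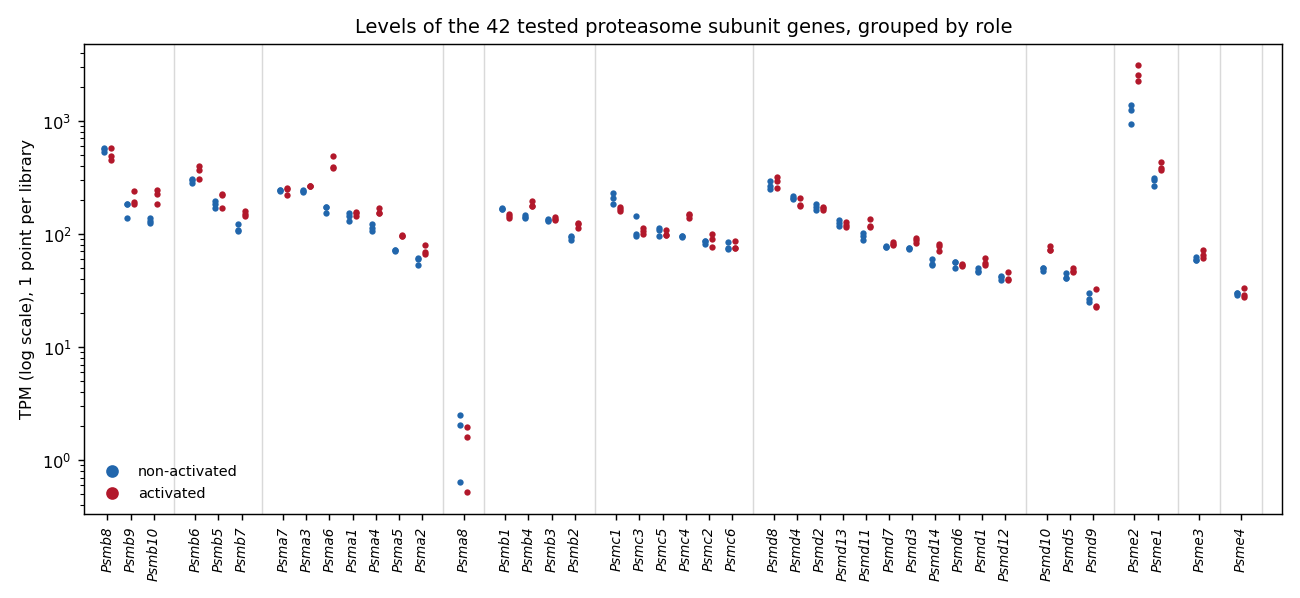
TPM on a log axis of each of the 42 tested genes, 1 point per library, grouped by role and ordered within a role by the non-activated mean. Most genes lie between about the levels of Psmd12 (41.2 TPM, non-activated mean) and Psmb8 (555 TPM), with Psme2 above them and the germ cell form Psma8 far below.

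Of the 5 immunosubunits, Psme2, Psmb10 and Psme1 rose, while Psmb8 and Psmb9 did not pass the test. The standard catalytic subunits gave 1 of 3 higher (Psmb7), and the remaining 34 tested members 9 higher. Of all tested genes, 15.9% were higher. Median log2 fold changes were 0.36 for the immunosubunits, 0.27 for the standard subunits and 0.11 for the rest. Without both replicate 1 libraries, 2 of the 5 immunosubunits passed, and with the replicate number as a block 4 did. In these fits 12.9% and 20.0% of all tested genes were higher, so calls over all genes moved the same way.

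At the beta-5 position, which carries chymotrypsin-like activity, the immuno form Psmb8 (chr17:34198195-34201454, GRCm38.p6) was at 491, 448 and 576 TPM in activated replicates 1 to 3 and at 562, 532 and 570 TPM in non-activated ones. The groups overlapped, and the highest and the lowest library were both activated. The fold was 0.935 (95% interval 0.80 to 1.09, edgeR adjusted p = 0.505), so a rise above 1.09-fold lay outside the interval. Its standard counterpart Psmb5 (chr14:54614120-54617995) was at 170, 225 and 220 TPM in activated and 169, 197 and 183 TPM in non-activated libraries. Activated replicate 1 fell among the non-activated libraries. The fold was 1.13 (95% interval 0.948 to 1.34, edgeR adjusted p = 0.284).

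At beta-2, with trypsin-like activity, both forms rose. The immuno form Psmb10 (chr8:105935728-105938392) was at 185, 224 and 243 TPM in activated and 129, 124 and 139 TPM in non-activated libraries. Every activated library was above every non-activated one. The fold was 1.58 (log2 0.66 ± 0.08 SE, edgeR adjusted p = 0.000669), and it passed in all 15 alternatives. The standard form Psmb7 (chr2:38588046-38643952) was at 159, 151 and 145 TPM in activated and 122, 108 and 105 TPM in non-activated libraries, again without overlap. The fold was 1.36 (log2 0.44 ± 0.11 SE, edgeR adjusted p = 0.0154). Removing non-activated replicate 2 (0.0631) or 3 (0.0665) ended that call, in a range of adjusted p from 0.00122 to 0.0665 over 15 alternatives.

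At beta-1, with caspase-like activity, the immuno form Psmb9 (chr17:34182030-34187330) was at 192, 184 and 238 TPM in activated and 182, 139 and 184 TPM in non-activated libraries. The lowest activated and the highest non-activated library lay side by side at 184.46 and 183.92 TPM. The fold was 1.22 (95% interval 1.03 to 1.44, edgeR adjusted p = 0.0783), and it passed with the replicate number as a block (0.0259, in a range of 0.0259 to 0.265 over 15 alternatives). The standard form Psmb6 (chr11:70525324-70527858) was at 307, 398 and 365 TPM in activated and 302, 306 and 281 TPM in non-activated libraries. Activated replicate 1 was the activated library nearest to the other group. The fold was 1.21 (95% interval 1.02 to 1.43, edgeR adjusted p = 0.0894). Psmb6 passed without activated replicate 1 (0.0334), without both replicate 1 libraries (0.0364) and with the block (0.0466), in a range of 0.0334 to 0.277.

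**Figure D2:**
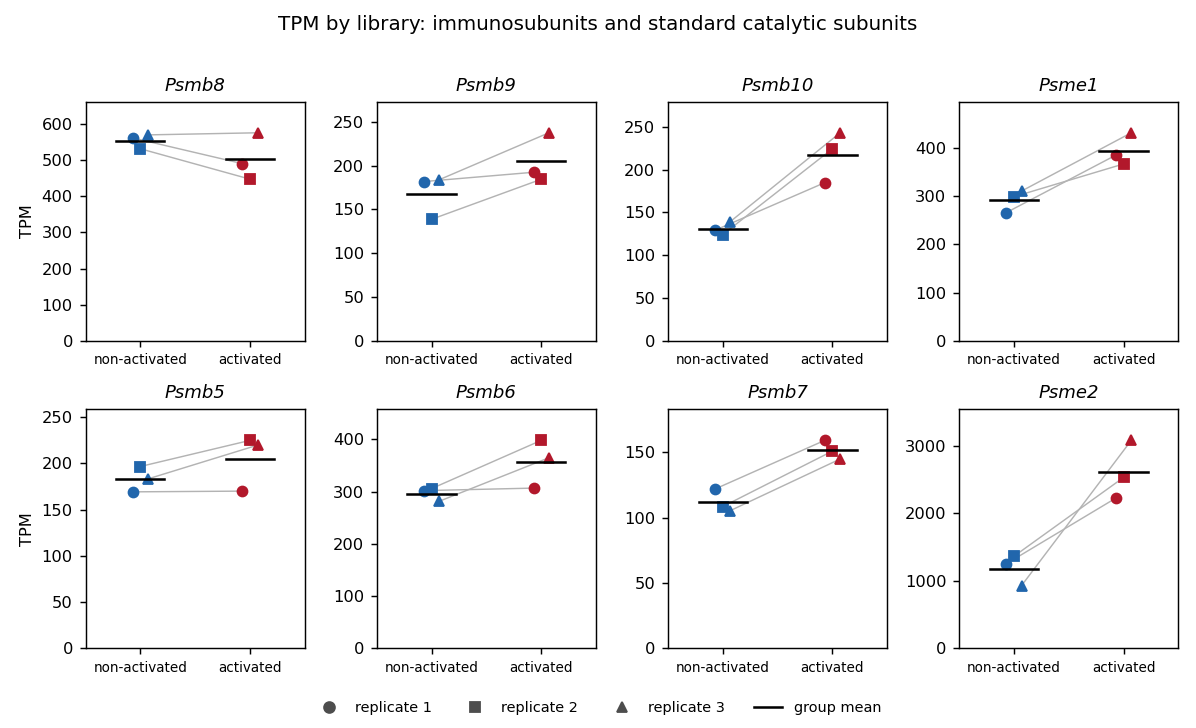
TPM of the 5 immunosubunits and the 3 standard catalytic subunits in each library, on axes that start at 0. Lines join same-numbered libraries and bars mark group means. Psmb10 (217 against 131 TPM) and Psme2 (2613 against 1183 TPM) separate widely, whereas the Psmb8 groups (505 against 555 TPM) overlap.

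The balance between the forms was taken within each library as the immuno form's percentage of the TPM at a position, a transcript ratio that says nothing of assembled particles. At beta-5 the immuno share was 74.3%, 66.6% and 72.4% in activated and 76.9%, 73.0% and 75.7% in non-activated libraries, lower in all 3 same-numbered pairs with overlapping groups. At beta-2 it was 53.8%, 59.8% and 62.7% against 51.5%, 53.4% and 57.0%, higher in all 3 pairs and also overlapping. At beta-1 it was 38.6%, 31.7% and 39.4% against 37.6%, 31.2% and 39.5%, and the same-numbered libraries lay close together. The mean share thus differed by -4.11 percentage points at beta-5 (71.1% ± 4.02 against 75.2% ± 1.97, SD, n = 3 each), by 4.81 at beta-2 (58.8% ± 4.56 against 53.9% ± 2.79) and by 0.444 at beta-1 (36.6% ± 4.26 against 36.1% ± 4.34). Exact two-sided permutation tests gave p = 0.2 at beta-5, p = 0.2 at beta-2 and p = 0.8 at beta-1, or 0.3, 0.3 and 0.8 adjusted over the 3 positions. With 3 libraries against 3 the smallest p such a test allows is 0.1, and for the 3 pairs it is 0.25. The beta-1 difference changed sign without activated replicate 1 (-0.557), activated replicate 3 (-0.998) or non-activated replicate 2 (-2.0). In both groups the immuno form made up most transcripts at beta-5 and beta-2 and the minority at beta-1.

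**Figure D3:**
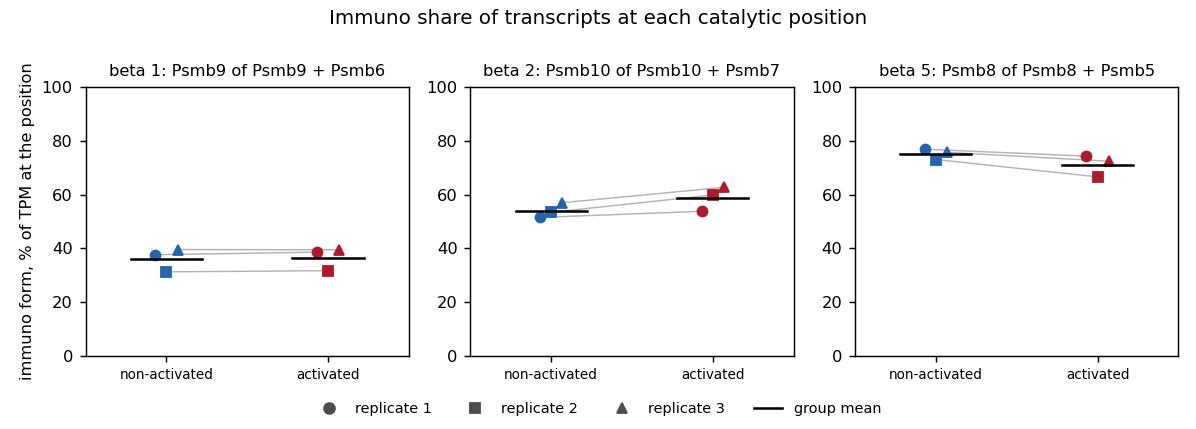
The immuno form as a percentage of TPM at the beta-1, beta-2 and beta-5 positions, 1 point per library, with lines joining same-numbered libraries and bars for group means. The share runs from 31.2% to 39.5% at beta-1 and from 66.6% to 76.9% at beta-5, and the groups overlap at all 3 positions.

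The PA28 pair held the member with the lowest adjusted p. Psme2, the PA28 beta subunit (chr14:55587440-55591101), was at 2227, 2532 and 3081 TPM in activated and 1253, 1364 and 931 TPM in non-activated libraries. All activated libraries were higher, with no overlap. These levels rest on an effective length of 158 to 245 bases, against 728 to 805 for Psme1, and in CPM (counts scaled to library size, with no length correction) Psme2 was at 327 ± 16.2 and 153 ± 11.3 (SD, n = 3 each). The fold was 2.13 (log2 1.09 ± 0.09 SE, edgeR adjusted p = 7.2e-05). Psme1, the PA28 alpha subunit (chr14:55578494-55581527), was at 384, 366 and 431 TPM in activated and 265, 298 and 310 TPM in non-activated libraries, without overlap. The fold was 1.28 (log2 0.36 ± 0.08 SE, edgeR adjusted p = 0.00909), with 0.0547 without both replicate 1 libraries in a range of 0.00182 to 0.0547. Its annotated span shares 9 bases with Emc9, which was at 5.04 to 12.2 TPM in the 6 libraries. In all, the spans of 11 members overlap another RefSeq gene, those of Psmb7 and Psma4 among them, and the labels do not state that strand was kept.

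The nuclear activator Psme3 (PA28 gamma) had means of 66.2 ± 5.27 and 59.8 ± 2.17 TPM and a fold of 1.13 (edgeR adjusted p = 0.171), and Psme4 (PA200) means of 29.9 ± 2.65 and 29.5 ± 0.744 TPM and a fold of 1.08 (adjusted p = 0.29, SD, n = 3 each). Neither passed. Psme1 and Psme2 together made up 96.8% ± 0.688 of activator TPM in activated and 94.2% ± 0.782 in non-activated libraries, a difference of 2.62 percentage points. Without length correction, on counts, that difference was 9.73 points. The TPM ratio of Psme2 to Psme1 was 6.62 ± 0.728 and 4.10 ± 0.953 (SD, n = 3 each), and it depends on the short effective length of Psme2. In CPM, with no length correction, Psme2 was at 327 and Psme1 at 198 in activated libraries. In non-activated libraries Psme2 was at 153 and Psme1 at 155 CPM.

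Promoter sequence was available from RefSeq (GRCm38.p6) for 36 of the 43 genes in 39 windows of 300 bases, from 250 before to 50 after each annotated start. Psme2 has a pair of overlapping windows, of which the first is shown. The windows below belong to the PA28 pair, which rose, and to Psmb8 and Psmb9, which did not pass, and read 5′ to 3′ on the gene's strand. Capitals mark a match to a searched motif.
Psme1 (chr14:55578244-55578543, + strand): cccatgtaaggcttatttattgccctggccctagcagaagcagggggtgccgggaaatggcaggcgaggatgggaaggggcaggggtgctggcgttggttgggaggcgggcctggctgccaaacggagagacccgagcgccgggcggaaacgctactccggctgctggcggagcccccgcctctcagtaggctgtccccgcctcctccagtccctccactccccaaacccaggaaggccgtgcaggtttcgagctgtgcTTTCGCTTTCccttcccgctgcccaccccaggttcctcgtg
Psme2 (chr14:55591052-55591351, - strand): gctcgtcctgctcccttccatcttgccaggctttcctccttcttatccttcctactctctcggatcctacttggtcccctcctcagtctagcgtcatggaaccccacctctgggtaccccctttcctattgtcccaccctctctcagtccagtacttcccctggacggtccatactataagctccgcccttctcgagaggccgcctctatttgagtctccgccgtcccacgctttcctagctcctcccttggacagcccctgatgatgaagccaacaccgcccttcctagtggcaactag
Psmb8 (chr17:34197945-34198244, + strand): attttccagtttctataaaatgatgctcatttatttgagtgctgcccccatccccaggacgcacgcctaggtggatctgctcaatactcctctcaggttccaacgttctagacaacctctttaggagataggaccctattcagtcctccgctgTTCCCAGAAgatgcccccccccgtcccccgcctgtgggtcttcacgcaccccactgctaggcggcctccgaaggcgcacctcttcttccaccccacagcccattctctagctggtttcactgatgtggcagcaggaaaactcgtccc
Psmb9 (chr17:34187281-34187580, - strand): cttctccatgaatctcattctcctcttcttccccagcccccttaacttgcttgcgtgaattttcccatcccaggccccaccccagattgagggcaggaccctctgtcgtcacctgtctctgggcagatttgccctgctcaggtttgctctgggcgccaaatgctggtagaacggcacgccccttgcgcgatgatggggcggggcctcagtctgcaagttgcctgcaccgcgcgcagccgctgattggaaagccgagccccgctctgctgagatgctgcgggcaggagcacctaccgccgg
In Psme1 the capitals are the interferon-stimulated response element core (GAAA, any 2 bases, GAAA), read on the other strand, at bases 260 to 269 of the window. In Psmb8 they are the gamma-activated sequence TTCNNNGAA, an interferon-related motif, at bases 154 to 162. Neither was in the Psmb9 window or in either window of Psme2.

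Motifs were searched on both strands in all 32851 windows of the table, and a match is a description of letters only. The interferon-stimulated core was in 4 of the 39 member windows (10.3%) and 3.44% of all windows. Its members were Psmb3, Psmd4, Psmd9 and Psme1, of which Psme1 alone had risen. TTCNNNGAA was in 2 member windows (5.13%, Psmb8 and Psmd2) and 8.30% of all. The NF-kappaB site core (GGG, any 2 bases, TTTCC) was in 0 member windows and 1.63% of all. The antioxidant response element core TGACNNNGC was in 6 member windows (15.4%) and 12.4% of all, those of Psmb5, Psmb6, Psmc6, Psmd12, Psmd9 and Psme4, and 0 of these 6 genes had risen. Member windows had a median GC content of 57.3% and all windows 52.7%.

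The alpha ring, which gates the entry to the core, had 3 of its 7 ubiquitous subunits higher and 0 lower, at a median log2 fold change of 0.31. Psma6 (chr12:55384222-55418459) was at 490, 390 and 384 TPM in activated and 173, 153 and 172 TPM in non-activated libraries. The lowest activated library was above the highest non-activated one by a wide margin, and the difference was the largest fold among the 42 members. The fold was 2.55 (95% interval 2.08 to 3.12, log2 1.35 ± 0.13 SE, edgeR adjusted p = 0.000185), and it passed in all 15 alternatives. Psma6 stood at 1.30 ± 0.0403 times the median TPM of the other 6 alpha subunits in non-activated libraries and at 2.73 ± 0.260 times in activated ones (SD, n = 3 each), although the ring holds each alpha subunit in equal number.

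Psma6 also has a pair of annotated starts, and both windows are shown because no other member rose as far. Neither held any of the 4 motifs.
Psma6 upstream start (chr12:55383972-55384271, + strand): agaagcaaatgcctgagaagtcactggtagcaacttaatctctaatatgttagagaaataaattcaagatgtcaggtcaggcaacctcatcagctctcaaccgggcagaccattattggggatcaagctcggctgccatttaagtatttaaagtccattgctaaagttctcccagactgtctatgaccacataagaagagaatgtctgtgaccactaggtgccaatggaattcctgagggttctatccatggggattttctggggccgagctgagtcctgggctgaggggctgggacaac
Psma6 downstream start (chr12:55398575-55398874, + strand): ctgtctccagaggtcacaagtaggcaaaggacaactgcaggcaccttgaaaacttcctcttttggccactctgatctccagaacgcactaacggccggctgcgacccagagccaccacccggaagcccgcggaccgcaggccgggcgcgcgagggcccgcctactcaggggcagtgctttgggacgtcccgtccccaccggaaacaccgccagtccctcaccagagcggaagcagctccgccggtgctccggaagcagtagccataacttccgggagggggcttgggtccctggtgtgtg
GC content was 46.7% in the upstream and 65.0% in the downstream window. The gene-level counts do not separate transcripts from these starts.

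Psma5 was at 94.9, 95.7 and 98.1 TPM in activated and 71.0, 72.7 and 71.5 TPM in non-activated libraries, with narrow spread in both groups. The fold was 1.35 (log2 0.43 ± 0.07 SE, edgeR adjusted p = 0.00283). Psma4 was at 170, 151 and 153 TPM in activated and 122, 106 and 112 TPM in non-activated libraries, without overlap. The fold was 1.38 (edgeR adjusted p = 0.0162), lost without non-activated replicate 2 (0.0695) or 3 (0.0721) in a range of 0.00086 to 0.0721. Psma2 was at 79.3, 68.7 and 65.8 against 60.6, 52.6 and 60.4 TPM, also without overlap, and did not pass (fold 1.24, edgeR adjusted p = 0.0552). It passed with the replicate block (0.00752, range 0.00752 to 0.178). Psma3, Psma1 and Psma7 had folds of 1.12, 1.07 and 1.01 with edgeR adjusted p of 0.176, 0.455 and 0.942. The germ cell form Psma8 was at 0.52, 1.98 and 1.60 against 0.64, 2.49 and 2.03 TPM, low in every library and lowest in both replicate 1 libraries, with a fold of 0.799 (95% interval 0.322 to 1.98, edgeR adjusted p = 0.72).

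**Figure D4:**
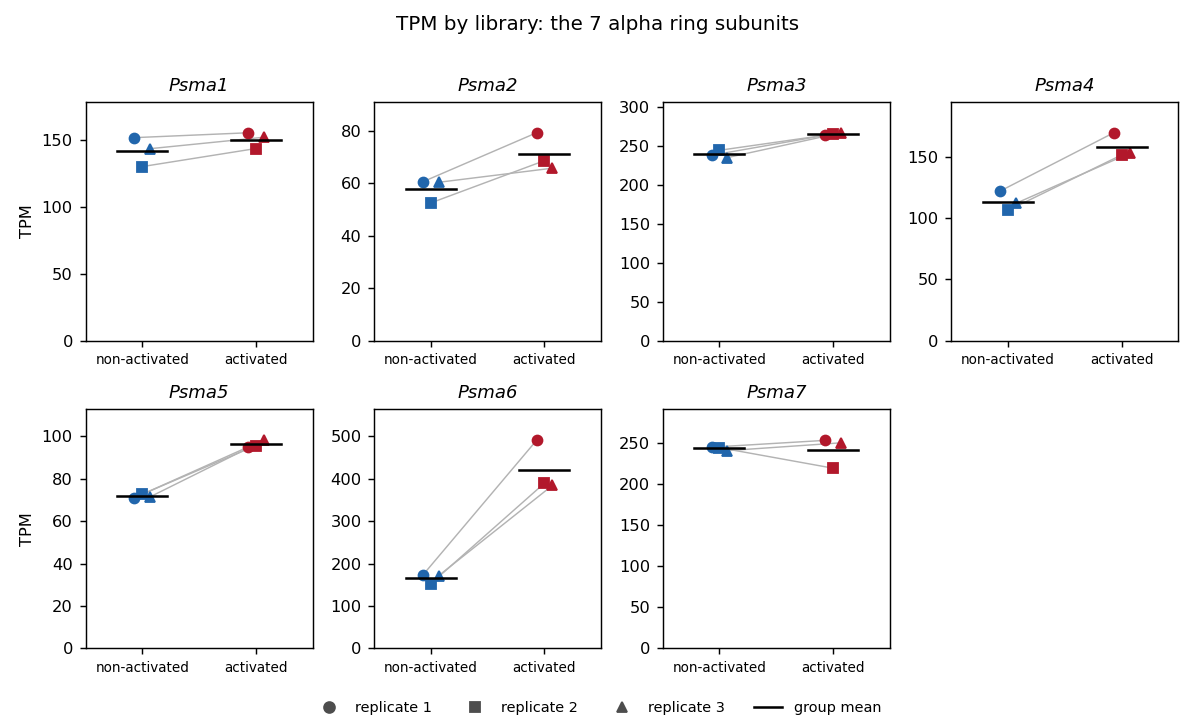
TPM of the 7 ubiquitous alpha ring subunits in each library, on axes that start at 0, with lines joining same-numbered libraries and bars for group means. Psma6 moves from 166 to 422 TPM, while Psma7 is at 243 and 241 TPM with overlapping groups.

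Of the 4 beta ring subunits without proteolytic activity, which shape the inner rings, 2 rose. Psmb4 was at 175, 175 and 196 TPM in activated and 140, 137 and 147 TPM in non-activated libraries, without overlap (fold 1.30, log2 0.38 ± 0.07 SE, edgeR adjusted p = 0.00613). Psmb2 was at 125, 112 and 122 TPM against 95.3, 93.8 and 87.6 TPM, without overlap (fold 1.31, edgeR adjusted p = 0.0162). Removing non-activated replicate 2 (0.0524) or 3 (0.0699) ended the Psmb2 call, in a range of 0.00419 to 0.0699. Psmb3 had a fold of 1.03 (edgeR adjusted p = 0.693). Psmb1 was 1 of the 2 members with all activated libraries below, at 150, 138 and 144 TPM against 167, 168 and 165 TPM. It did not pass (fold 0.873, edgeR adjusted p = 0.108) but did with library size as the only scaling (0.0352), with the block (0.0459) and without activated replicate 1 (0.0375), in a range of 0.0352 to 0.270. Over the 11 ubiquitous alpha and non-catalytic beta genes, whose products are present in equal number in a core, mean TPM ran from 57.9 (Psma2) to 243 (Psma7) in non-activated and from 71.3 (Psma2) to 422 (Psma6) in activated libraries.

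Of the 17 cap genes, 3 rose, a share near the 15.9% of all tested genes. Among the 6 ATPases, which unfold substrates, Psmc4 rose and the other 5 did not pass. Psmc4 was at 150, 145 and 139 TPM in activated and 94.9, 94.4 and 95.1 TPM in non-activated libraries, the latter within 1 TPM of each other. The fold was 1.55 (log2 0.63 ± 0.08 SE, edgeR adjusted p = 0.00101). Psmc1 was the other member with all activated libraries below, at 161, 166 and 172 TPM against 231, 183 and 207 TPM (fold 0.828, edgeR adjusted p = 0.0711). It passed with library size as the only scaling (0.0282), with the block (0.0165) and without activated replicate 1 (0.0318), in a range of 0.0165 to 0.213. Psmc2, Psmc3, Psmc5 and Psmc6 had folds of 0.962 to 1.07.

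Among the 11 non-ATPase subunits of the cap, 2 rose. Psmd14, the deubiquitinase that removes ubiquitin chains during degradation, was at 82.0, 70.6 and 78.8 TPM in activated and 59.5, 54.3 and 52.6 TPM in non-activated libraries, without overlap. The fold was 1.39 (log2 0.48 ± 0.08 SE, edgeR adjusted p = 0.00255). Psmd11, a scaffold subunit, was at 135, 118 and 114 TPM against 88.6, 96.5 and 102 TPM, also without overlap (fold 1.28, edgeR adjusted p = 0.0236). The Psmd11 call held in 2 of the 6 fits that left out 1 library. It ended when activated replicate 2 (0.0558) or non-activated replicate 1 (0.061), 2 (0.0817) or 3 (0.0842) was removed, without both replicate 1 libraries (0.0841) and with library size as the only scaling (0.0598), in a range of 0.00936 to 0.0842. Psmd1, a large scaffold subunit, was at 61.0, 55.2 and 53.2 TPM against 50.4, 46.5 and 46.9 TPM, without overlap, and did not pass (fold 1.24, edgeR adjusted p = 0.0534). Psmd1 passed without activated replicate 3 (0.0406), without non-activated replicate 1 (0.0457) and with the block (0.00806, range 0.00806 to 0.177). Psmd3 had a fold of 1.16 (edgeR adjusted p = 0.071) and passed with the block (0.043, range 0.043 to 0.229). The other 7 had folds of 0.900 (Psmd4, a ubiquitin receptor) to 1.09 (Psmd8). Mean TPM over the 17 cap genes ran from 41.2 (Psmd12) to 267 (Psmd8) in non-activated and from 41.7 to 288 in activated libraries.

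Of the 3 chaperones that assemble the cap, Psmd10 (gankyrin) rose, from 46.8, 49.8 and 49.6 TPM in non-activated to 71.7, 78.1 and 71.6 TPM in activated libraries. The groups were far apart (fold 1.53, log2 0.61 ± 0.08 SE, edgeR adjusted p = 0.00082). Psmd10 overlaps Atg4a in the annotation. Psmd5 had all activated libraries above on TPM (47.7 ± 1.77 against 42.4 ± 2.46, SD, n = 3 each) but a count-based fold of 1.00 (edgeR adjusted p = 0.982), so its difference was on the length-corrected scale only. Psmd9 had a fold of 1.05 (edgeR adjusted p = 0.6). The thymoproteasome subunit Psmb11 was at 0 to 0.13 TPM.

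**Figure D5:**
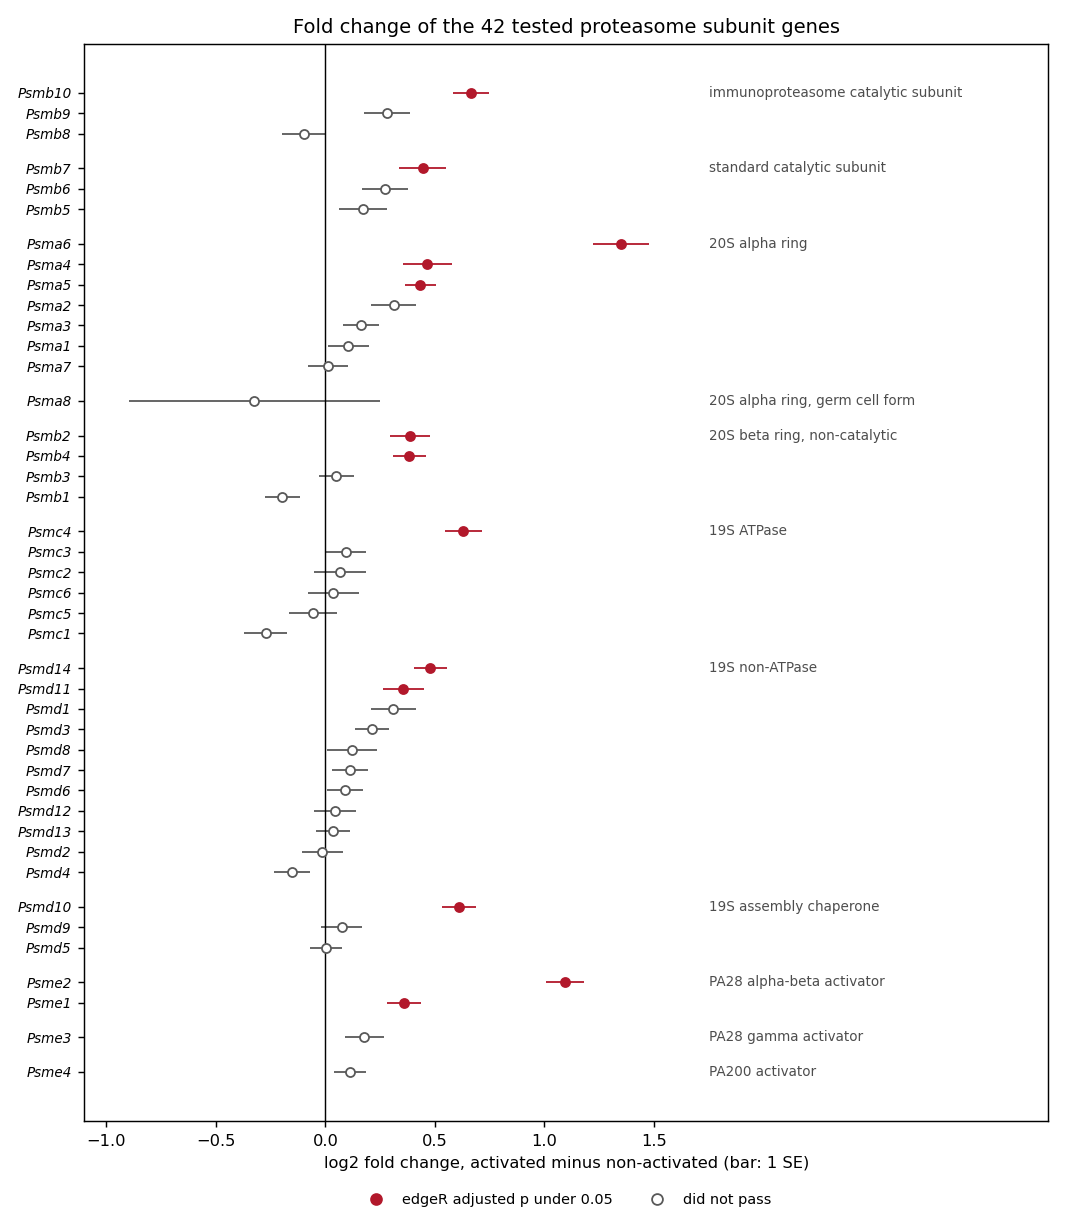
Log2 fold change of activated over non-activated for the 42 tested genes with 1 SE, by role. Filled points passed edgeR's test. The 13 filled points lie to the right of 0, led by Psma6 (1.35) and Psme2 (1.09). The cap genes run from -0.27 (Psmc1) to 0.63 (Psmc4).

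Other genes of the pathway were taken from a list by function, of which 32 of 33 symbols were found and tested. Of these, 9 rose (28.1%, against 15.9% of all tested genes), 4 fell (12.5%, near the 11.7% of all) and 19 did not pass, with a median log2 fold change of 0.13. The largest folds among them were those of regulators of immunoproteasome genes. Irf1, a transcription factor that binds immunoproteasome gene promoters, went from 67.2 ± 5.33 to 257 ± 4.90 TPM (fold 3.92, edgeR adjusted p = 2.89e-06). Nlrc5, the transactivator of MHC class I genes, went from 22.4 ± 3.29 to 63.3 ± 16.9 TPM (fold 2.87, edgeR adjusted p = 0.00067; SD, n = 3 each). Both had separate groups and passed in all 15 alternatives.

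Pomp, the chaperone that assists assembly of the core, was at 734, 711 and 788 TPM in activated and 533, 548 and 493 TPM in non-activated libraries, without overlap. The fold was 1.4 (edgeR adjusted p = 0.00354). Another core chaperone, Psmg3, rose 1.39-fold (edgeR adjusted p = 0.0216), which did not pass when activated replicate 2 or 3, non-activated replicate 1 or 3, or both replicate 1 libraries were left out (0.0533 to 0.0793, in a range of 0.0138 to 0.0793). Psmg1, Psmg2 and Psmg4 had folds of 1.11, 1.10 and 1.02 and did not pass. Nfe2l1, the factor that restores proteasome gene transcription when the proteasome is inhibited, rose 1.29-fold (edgeR adjusted p = 0.0076), and its relative Nfe2l2, which drives antioxidant genes, fell to 0.853-fold (adjusted p = 0.0486). The Nfe2l2 call ended when any 1 library was left out (0.0533 to 0.15, in a range of 0.0113 to 0.15). Ddi2, the protease that activates Nfe2l1, fell to 0.807-fold (edgeR adjusted p = 0.0251), and did not pass on removal of activated replicate 2 (0.0601) or non-activated replicate 1 (0.0862) or 3 (0.0502), without both replicate 1 libraries (0.0714) and on TPM, in a range of 0.00891 to 0.165.

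The ubiquitin shuttle Ubqln4 fell to 0.818-fold (edgeR adjusted p = 0.0223). The Ubqln4 call was lost without activated replicate 3 (0.0526), without non-activated replicate 2 (0.09) or 3 (0.0741) and on TPM, in a range of 0.00799 to 0.113. The polyubiquitin gene Ubb had a fold of 0.975 and did not pass. Tap1 and Tap2, the transporter that carries proteasome products into the endoplasmic reticulum, rose 1.34-fold (edgeR adjusted p = 0.0297) and 1.30-fold (adjusted p = 0.02). Tap1 lost the call without activated replicate 2 (0.0748) or 3 (0.101) and without non-activated replicate 2 (0.108) or 3 (0.105), and with library size as the only scaling (0.0577), in a range of 0.00473 to 0.108. Tap2 lost it without activated replicate 3 (0.0637) and without non-activated replicate 2 (0.0828) or 3 (0.0696), on TPM and with library size as the only scaling (0.0512), in a range of 0.00401 to 0.101. Tap1 and Tap2 alternate with Psmb9 and Psmb8 along chromosome 17, where the annotated spans of Psmb9 and Tap1 lie 225 bases apart, so that called and uncalled genes neighbour each other there.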

How the data were processed

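Messenger RNA was sequenced from 3 activated and 3 non-activated libraries, each from 200 ng RNA (NEBNext Ultra kit, per the labels' protocols). The 4 ATAC-seq samples were not analysed here. Per the file headers, the authors made gene tables with RSEM's columns, among them an expected count for each gene, which is not normalized. The deposited TPM values are scaled for effective length and library size. RSEM divides reads shared by similar genes in fractions, so values of near-identical copies are uncertain. The submitters' processing notes name GRCm38 as a build. No RNA aligner is named as such. Effective lengths are in the deposited tables.

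Symbols matched 41597 gene IDs. Expected counts were rounded and fitted for all genes in R 4.3.3 with edgeR 4.0.16 (TMM factors, filterByExpr, glmQLFit, glmQLFTest, group as the only term, Benjamini-Hochberg threshold 0.05). The SE is the size of the log2 fold change divided by the root of F, and intervals are at 95%. CPM values are TMM-scaled. The fits were also run on simulated counts with few changed genes and no shared replicate effect, which do not test the scaling or the pairing here. Intervals cover the spread between libraries. edgeR's common biological coefficient of variation was 16.9%. Levels are compared between genes on TPM, and for the PA28 activators also without length correction. Shares at catalytic positions were compared by exact permutation.

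Members of the family and the lists of pathway genes, markers and motifs were chosen with earlier results of these data known. Named in full are the catalytic subunits, Psme1, Psme2, called members and, of the uncalled, the 3 with the largest absolute log2 fold change. All called pathway genes were also to be named, but some are not reported here. Psmb1, Psmc1, Psmd3 and Psmd5 were added after their values were seen. Alternatives were RLE scaling, library size only, no filter, DESeq2 1.42.0, limma-voom 3.58.1, limma on log2(TPM + 1) and log2(TPM + 0.1) at a mean TPM of at least 1, a replicate block, and each library left out. Leaving out both replicate 1 libraries, and all alternatives for the PA28 share, were added after the data were seen. Titles share replicate numbers. Deviations from group means correlated at 0.53, 0.50 and 0.26 for same-numbered libraries and at -0.45 to 0.06 otherwise. Same-numbered libraries thus resembled each other, although no label states the meaning of a number. Deviations cancel within a group, so negative values between unlike numbers are partly forced. The main fit and the permutation tests leave the replicate number out, and calls of members with it as a block are given beside them. Coordinates and promoters are RefSeq's on GRCm38.p6.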

Additional observations from a re-analysis of the deposited data

How the results depend on the processing

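The number of risen members was 13 in the main analysis and 9 (without non-activated replicate 2 or 3) to 18 (replicate block) over the alternatives. The share of all tested genes that were higher moved the same way. It was 15.9% in the main analysis, 11.26% without non-activated replicate 2, 11.04% without non-activated replicate 3 and 20.0% with the block. Members that fell numbered 0, but 2 (Psmb1 and Psmc1) with library size as the only scaling, 2 with the replicate block and 0 to 2 over the fits that left out 1 library. With the block 4 of 5 immunosubunits rose, and all 13 risen members still passed. The block changed no call of members beyond those given with Psmb9, Psmb6, Psma2, Psmb1, Psmc1, Psmd1 and Psmd3. Pathway genes that rose numbered 9, and 12 with the block. Those that fell numbered 4, but 1 on log2(TPM + 1), 1 on log2(TPM + 0.1) and 1 to 4 without 1 library. The beta-1 share difference ran from -2.0 to 2.89 points without 1 library, negative without activated replicate 1 (-0.557), activated replicate 3 (-0.998) or non-activated replicate 2 (-2.0). The cause of these changes was not tested. The PA28 share difference of 2.62 points became 9.73 on counts with no length correction.

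Over all genes, 2216 were higher and 1632 lower, against 1792 and 2274 with library size as the only scaling, which shifted the median log2 fold change by -0.08, and against 2787 and 2397 with the replicate block. Against members' 13 higher and 0 lower, that scaling gave 12 and 2. Fits on TPM gave 1379 and 1038 (pseudocount 1) and 1390 and 1053 (pseudocount 0.1). Lower genes numbered 1061 without non-activated replicate 2.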

Other observations

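The genes within 100 kb of Psma6 and Psme2, the members with the largest folds, and of Psmb9 were looked up after the values were seen. Around Psmb9, Tap1 and Tap2 rose, as given above, and the other tested genes, the MHC class II genes among them, did not pass. Near Psma6 lies Nfkbia, the inhibitor of NF-kappaB, at 1128 ± 91.2 and 557 ± 24.9 CPM in activated and non-activated libraries (SD, n = 3 each; fold 2.03, edgeR adjusted p = 0.000222), while Ppp2r3c on the other side had a fold of 1.01 (adjusted p = 0.956). Near Psme2 lies Irf9, a subunit of the interferon-stimulated factor that binds the response element searched above, which rose 1.82-fold (edgeR adjusted p = 0.000338). Rnf31, between Psme2 and Irf9, did not pass (fold 1.17, edgeR adjusted p = 0.0927). Dcaf11 (fold 1.17) and Gmpr2 (fold 1.21) also rose there and Mdp1 fell (fold 0.827). The rest of the tested genes around Psme2, apart from Psme1 and Emc9, did not pass. Emc9, which overlaps Psme1, fell to 0.602-fold (adjusted p = 0.0398).

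Other genes whose symbols begin like those of the members were outside the rule. Psme2b, a Psme2-like copy on chromosome 11, was at 11.04 ± 2.65 and 8.23 ± 0.380 TPM (SD, n = 3 each; fold 1.35, edgeR adjusted p = 0.168). Reads shared with Psme2 may have been divided between the copies in the authors' counting. Psmc3ip was at 1.41 and 0.957 TPM (edgeR adjusted p = 0.463).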
